A study of Homo sapiens with 12 samples.

Results

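The interferon response and MHC class I genes were 39 genes named by symbol, of 18623 symbols with a row in at least 1 of 2 deposited tables of human neurons. The list held 40 symbols, of which DDX58 and RIGI name 1 gene. Membership went by symbol and used no measured value, but the list was chosen with earlier results of these data known. Of the 39 genes, 27 had a row in the table of motor neurons (iMNs) and 36 in the table of NGN2-induced neurons (i3Ns). The 27 genes of the iMN table carried 41 identifiers and the 36 of the i3N table carried 56, since several genes have further identifiers on alternate sequences of the genome. IFIT1, OAS1 and OAS2 had no row in either table.

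The iMNs came from an induced pluripotent stem cell line with Td-Tomato under the HB9 promoter and were sorted by flow cytometry for that reporter. The i3Ns came from H1, an established human embryonic stem cell line engineered for inducible NGN2, a transcription factor that drives excitatory neurons. Each neuron type had 3 libraries with a scrambled shRNA (SCR) and 3 with an shRNA against SMN1 and SMN2 (SMN-KD), of which loss of SMN1 causes spinal muscular atrophy, giving 12 libraries of ribosomal RNA-depleted total RNA. The shRNA was delivered by lentivirus to controls and knockdown cells alike, and no group without virus was analysed here. Each neuron type was made from 1 stem cell line by 1 protocol, so that type, line and protocol cannot be told apart.

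The value used was the authors' mean normalized count, a single value per gene over all 6 libraries of a neuron type, SCR and SMN-KD together. Values per library were not analysed here, so that no level below carries an SD, a replicate check or a test, no neighbouring levels can be said to differ beyond their spread, and SMN-KD was not compared with SCR. The means summed to 4.33e+07 in the iMN table and 4.50e+07 in the i3N table, with a lowest mean of 7.73 and 1.37. The depth of single libraries is unknown. To set the tables side by side, each mean was divided by its table's sum and multiplied by 1000000 (its share in ppm), and for comparisons between genes also divided by transcript length in kilobases (ppm per kb). The tables were normalized separately by the authors, which applies to each comparison of iMNs with i3Ns. In bulk RNA, fewer cells of a type and less RNA per cell cannot be told apart.

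Both tables held the 6 neuronal markers looked for (TUBB3, MAP2, SYN1, STMN2, ELAVL3 and RBFOX3), with a median percentile of 98.9 in iMNs and 99.0 in i3Ns among all genes ranked per kb. The motor neuron label was borne out by some markers and not by others. MNX1, which encodes HB9, had a share of 9.92 ppm in iMNs and 50.6 in i3Ns, and ISL1 and ISL2, motor neuron transcription factors, were 8.27-fold and 48.5-fold higher in i3Ns. SLC5A7, the choline transporter, was 3.56-fold higher in iMNs, SLC18A3, the vesicular acetylcholine transporter, was 1.74-fold higher in iMNs, and CHAT, which makes acetylcholine, was 1.05-fold higher in iMNs. SLC17A6 and SLC17A7, glutamate transporters of excitatory neurons, were 18.2-fold and 125-fold higher in i3Ns. The tables are tied to a neuron type by their names alone, every direction between iMNs and i3Ns below rests on those names, and an exchange of cells or tables was not tested. Of 7 markers of microglia and blood cells, which respond strongly to interferon, none had a row in the iMN table and 3 had a row in the i3N table, with a highest mean of 6.05 for PTPRC. AIF1, P2RY12, CSF1R and TYROBP were listed in neither.

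Interferons are secreted signals that cells release on sensing foreign nucleic acid. RIG-I (encoded by DDX58) and MDA5 (IFIH1) recognise viral RNA and signal through MAVS on mitochondria to IRF3 and IRF7, which switch on interferon genes. Interferon bound to its receptors activates JAK kinases and STAT proteins, and the complex that holds STAT2 and IRF9 binds the interferon-stimulated response element (ISRE) in the promoters of antiviral genes. The same signals raise MHC class I, which shows peptides from inside the cell to T cells. MHC class I consists of an HLA heavy chain and beta-2 microglobulin (B2M) and is loaded by the TAP transporter and tapasin (TAPBP), and neurons are known for a low surface level of it.

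The ISRE core was searched as GAAANNGAA on either strand, in the 300 bases from 250 before to 50 after each RefSeq gene start (GRCh38.p14), of which entries matched 32 of the 39 genes. It was present in 21 of 32 (65.6%), against 2693 of 27305 genes in all (9.86%). A gene was counted if the window of any of its RefSeq starts held a match. The genes were listed as interferon response genes, for which this element is known, so the contrast is a description and not a test. By role it was in 15 of 17 antiviral effectors, 4 of 6 MHC class I genes and 2 of 4 sensors and adaptors, and in none of 2 receptors or 3 transcription factors. The letters are listed below for the genes on which the levels later turn, 5′ to 3′ on the gene's strand. Capitals mark the ISRE core (as GAAANNGAA, or as TTCNNTTTC where the core is on the other strand), and runs of capitals longer than 9 bases are overlapping cores.
IFIT1 (listed in neither table, chr10:89392517-89392533, + strand): ccctTTCGGTTTCccta
IFIT3 (listed in i3Ns only, chr10:89332426-89332448, + strand): cagaTTCTGTTTCAGTTTCccct
IFIT5 (the highest effector, chr10:89414561-89414577, + strand): aagtTTCAGTTTCtgag
ISG15 (higher in iMNs, chr1:1013380-1013408, + strand): tcggGAAAGGGAAACCGAAACTGAAgcca
MX1 (higher in iMNs, chr21:41420565-41420587, + strand): aaatGAAACCGAAACTGAAttgt
IFI6 (higher in i3Ns, chr1:27672273-27672289, − strand): tgcaGAAATAGAAactc
IFITM3 (listed in i3Ns only, chr11:320883-320899, − strand): ttgaGAAACCGAAacta
B2M (the highest MHC class I gene in iMNs, chr15:44711369-44711391, + strand): ctaaGAAAAGGAAACTGAAaacg
TAP1 (similar in both, chr6:32853819-32853841, − strand): cgctTTCGATTTCGCTTTCccct

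The search covered only 300 bases around each start, so each core found had to lie near it. Of several stretches in a gene, which can have several RefSeq starts, the longest was printed, and among equals the nearest to its start. In IFIT3 the printed stretch lay 99 bases before a RefSeq start, and cores near another start of the gene were not printed. The first capital was 144 bases before the RefSeq start in B2M, 113 in ISG15, 102 in IFIT1, 35 in IFITM3 and 3 in IFIT5, and 11 bases after it in MX1. The printed stretch held 3 overlapping cores in ISG15, 2 in B2M, MX1, TAP1 and IFIT3, and 1 in the others, and some of these genes had further cores elsewhere in their windows, among them IFIT5, IFITM3 and IFIT3. When the core had to be followed by A, 20 of 32 genes (62.5%) held it, against 4.38% of all genes, and the gene lost was IFI16. The core of the gamma-activated site, through which interferon gamma acts, searched as TTCNNNGAA (the GAS core, which reads the same on both strands), was present in 9 of 32 (28.1%), against 9.38% of all genes. Those were IRF1, IRF9, TAP1, OAS1, MX1, BST2, IFI27, IFI35 and IFITM1. As with the ISRE core, the contrast of the GAS core with all genes is a description and not a test. A match describes the letters of these windows and is not evidence of binding. HLA-B and HLA-C held neither core within the 300 bases, while IFNAR2, IRF3, IRF7, IFIT2, OAS2, IFITM2 and HLA-E had no entry.

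Ranked per kb among all genes of a table, the listed genes sat below the middle, with a median percentile of 40.0 in iMNs (27 genes) and 35.3 in i3Ns (36 genes). A percentile holds within its own table and is not comparable between neuron types, since the tables start at different means (7.73 and 1.37). DDX58, with a share only 1.05-fold apart, was at percentiles 20.5 and 30.6. In iMNs 11 of 27 were above the 50th percentile, where 50% of all genes lie, and 6 of 27 at or under the 25th, where 25% lie. In i3Ns 12 of 36 were above the 50th percentile (50% of all genes) and 12 of 36 at or under the 25th (25%). The receptors and the MHC class I genes stood highest and the antiviral effectors lowest in both neuron types, as the plot of percentiles by role shows.

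**Figure D1:**
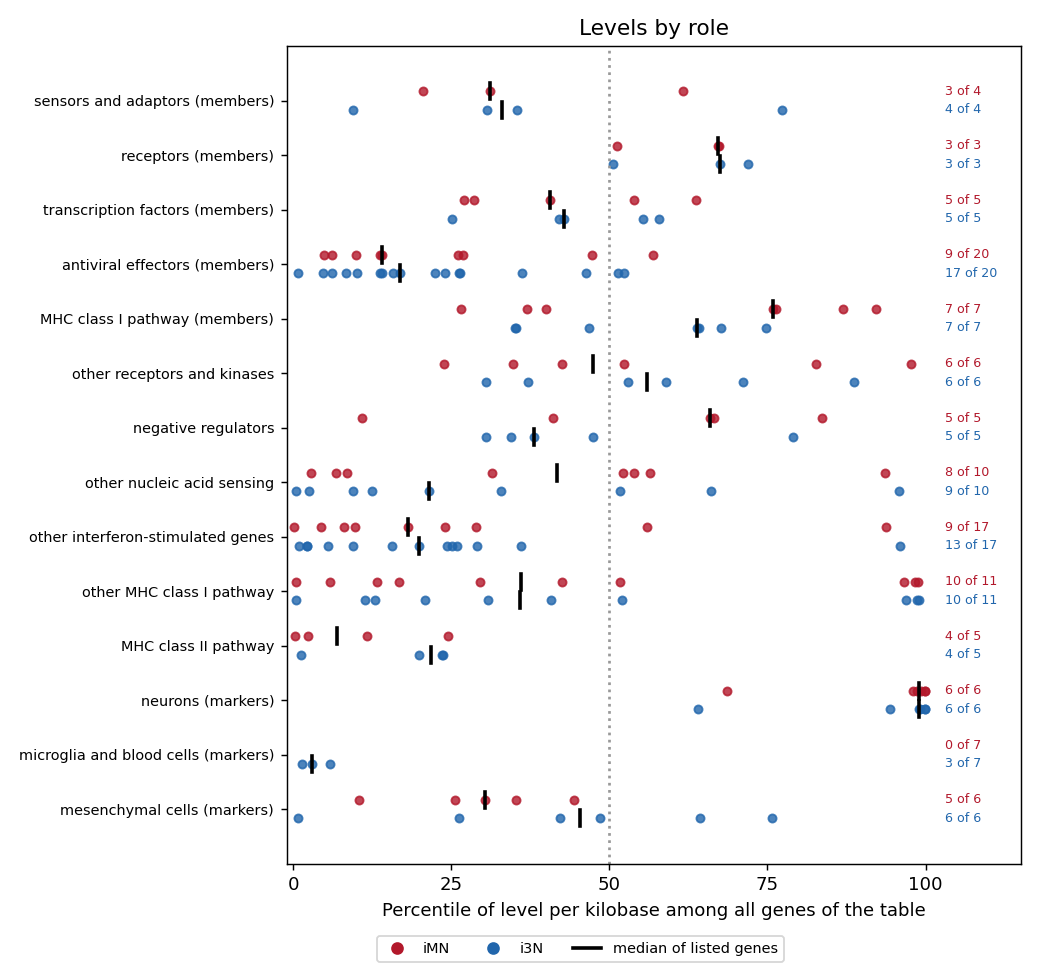
Percentile of each listed gene among all genes of its table (x axis, ranked by ppm per kb), by role or list (y axis) and neuron type (red iMNs, blue i3Ns), with black lines at the median of listed genes, a dotted line at percentile 50 and, at the right, how many genes of each list have a row. Effectors have a median of 14.1 in iMNs and 16.8 in i3Ns, against 67.1 and 67.5 for the 3 receptors. Percentiles hold within a table and are not comparable between neuron types.

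The 4 sensors and adaptors covered a wide range. MAVS, the adaptor shared by RIG-I and MDA5 (chr20:3846799-3876123, + strand, GRCh38), was the most abundant of them, with a mean of 5373 in iMNs and 8984 in i3Ns, or 10.6 and 17.0 ppm per kb, at percentiles 61.7 and 77.3. DDX58 had nearly the same mean in both, 165.0 in iMNs and 163.6 in i3Ns, at percentiles 20.5 and 30.6. IFI16, a sensor of DNA in the nucleus, had means of 280.9 and 174.2, a share 1.68-fold higher in iMNs. IFIH1 had no row in the iMN table and a mean of 11.4 in i3Ns, or 0.0703 ppm per kb, the 9.42 percentile. The adaptor was thus listed at 10.6 ppm per kb in iMNs beside 0.823 for the sensor DDX58.

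The 3 receptor chains were under 2-fold apart between neuron types. IFNAR1 and IFNAR2 form the type I interferon receptor, and IFNGR1 is the ligand-binding chain for interferon gamma. IFNAR1 had a mean of 3418 in iMNs and 3643 in i3Ns, or 13.0 and 13.3 ppm per kb. IFNGR1 had means of 1176 and 1030, or 13.1 and 11.0 ppm per kb, at percentiles 67.4 and 67.5. IFNAR2 was lower, with means of 1243 and 884.2, or 7.04 and 4.82 ppm per kb. All 3 chains were above the 50th percentile in both tables.

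Among the 5 transcription factors, 2 had a share at least 2-fold higher in iMNs, against 13.9% of all genes in both tables. The other 3 were under 2-fold apart. IRF9, the DNA-binding partner of STAT2 (chr14:24161234-24168043, + strand), had a mean of 810.4 in iMNs and 191.9 in i3Ns, or 11.5 and 2.62 ppm per kb, a share 4.39-fold higher in iMNs. IRF1, which drives MHC class I and inflammatory genes (chr5:132440440-132508719, − strand), had means of 283.8 and 64.4, a share 4.58-fold higher in iMNs. STAT2 was similar, with means of 1499 and 1234 and 7.86 and 6.22 ppm per kb. IRF3, the constitutive factor downstream of MAVS, had means of 296.5 and 510.1, a share 1.65-fold higher in i3Ns. IRF7, its interferon-induced relative, had means of 133.5 and 243.6, a share 1.76-fold higher in i3Ns. IRF9 and IRF1 thus lay on one side and IRF3 and IRF7 on the other. The IRF7 mean rested mostly on an identifier of an alternate sequence (ENSG00000276561), which held the whole of it in iMNs and 94.2% in i3Ns. The identifier on chromosome 11 (ENSG00000185507) had a mean of 14.0 in i3Ns.

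The 20 antiviral effectors were the least complete group: 9 had a row in the iMN table and 17 in the i3N table. Of those listed, 5 of 9 in iMNs and 11 of 17 in i3Ns were at or under the 25th percentile per kb, and 1 and 2 were above the 50th. The exception in both neuron types was IFIT5, which binds viral RNA and lies beside IFIT1, IFIT2 and IFIT3 on chromosome 10 (chr10:89414568-89421605, + strand). Its mean was 1551 in iMNs and 976.7 in i3Ns, or 8.89 and 5.38 ppm per kb, at percentiles 56.9 and 52.3. Its neighbours were near the floor of the tables. IFIT2 had a mean of 23.4 in iMNs and 1.96 in i3Ns. IFIT3 had no row in iMNs and a mean of 12.5 in i3Ns. IFIT1 was listed in neither, although its promoter and those of IFIT3 and IFIT5 carry the ISRE cores printed above.

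ISG15, a ubiquitin-like protein attached to newly made proteins, and MX1, a GTPase that blocks viral nucleocapsids, were higher in iMNs. ISG15 had a mean of 163.3 in iMNs and 42.2 in i3Ns, or 5.92 and 1.47 ppm per kb, a share 4.02-fold higher in iMNs. MX1 had means of 174.3 and 57.1, or 1.45 and 0.457 ppm per kb, a share 3.17-fold higher in iMNs. RSAD2, which encodes viperin, was low in both, with means of 19.9 and 5.62, a share 3.67-fold higher in iMNs. IFI6, a mitochondrial antiviral protein (chr1:27666064-27672212, − strand), went the other way, with a mean of 55.6 in iMNs and 134.4 in i3Ns, a share 2.32-fold higher in i3Ns. Effectors with an ISRE core therefore included ISG15, MX1 and RSAD2, higher in iMNs, IFI6, higher in i3Ns, and genes listed in only 1 table.

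The other effectors listed in both were under 2-fold apart. ISG20, an RNA exonuclease, had a mean of 17.7 in iMNs and 21.8 in i3Ns. IFI27 had means of 42.9 and 39.2. IFITM2, which keeps viruses from fusing with endosomes, had means of 17.0 and 20.6. All 3 were below 0.5 ppm per kb in both neuron types, in a table whose median gene had 6.65 in iMNs and 4.67 in i3Ns.

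A further 8 effectors, with the sensor IFIH1, had a row in the i3N table only. IFI44, IFITM1, BST2 (tetherin, which holds budding virus at the cell surface) and IFI35 had i3N means of 3.39, 2.29, 7.32 and 7.60, all under the lowest mean of the iMN table (7.73). IFI44L and OAS3, which makes the 2-5A signal that activates RNase L, had i3N means of 16.4 and 36.1. IFITM3 stood apart, with a mean of 138.9 in i3Ns, 5.05 ppm per kb and the 51.3 percentile, and no row in iMNs. Of 12110 genes with an i3N mean of at least that of IFITM3, 80 (0.661%) had no row in the iMN table, and 73 of 11815 protein-coding genes (0.618%). That count was made after the value of IFITM3 was seen. IFITM1, IFITM2 and IFITM3 are close copies on chromosome 11, and how reads were divided between them was not tested. A missing row says only that the gene is not in that table.

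The share of the 36 genes of the i3N table that also had an iMN row was 75%, against 85.2% of all 18390 symbols of that table. The iMN table starts at a higher mean, so the comparison was repeated, after the data were seen, for genes with an i3N mean of at least 10: 25 of 30 (83.3%) had an iMN row, against 96.1% of all such genes. The 5 without one were IFIH1, IFIT3, OAS3, IFI44L and IFITM3.

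**Figure D2:**
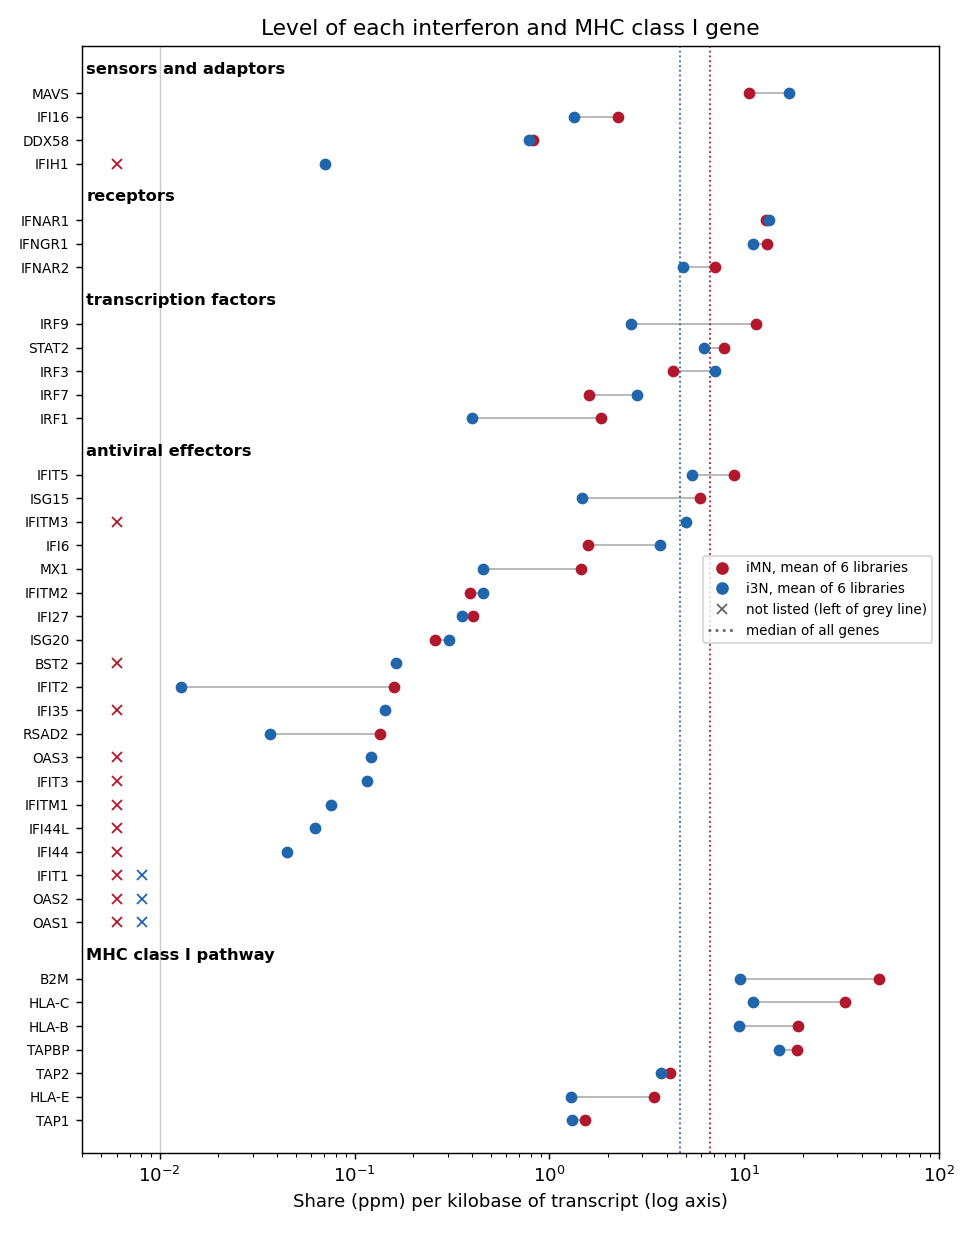
Level in ppm per kb (x axis, log scale) of each gene in iMNs (red) and i3Ns (blue), grouped by role (y axis), 1 point per neuron type from the authors' mean over 6 libraries, so that there are no error bars. Crosses left of the grey line mark genes with no row in that table, dotted lines the median of all genes, and receptors, MAVS and MHC class I genes lie to the right of most effectors.

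Of the 7 MHC class I genes, 4 held the highest levels per kb of the module in iMNs (B2M, HLA-C, HLA-B and TAPBP), and the shares of all 7 summed to 226 ppm in iMNs and 121 in i3Ns. B2M, the light chain of every class I molecule (chr15:44711358-44718851, + strand), had a mean of 2005 in iMNs and 404.0 in i3Ns. Its level was 49.1 and 9.51 ppm per kb, the 92.2 and 64.1 percentile, and its share was 5.16-fold higher in iMNs. HLA-C, a classical heavy chain (chr6:31268749-31272130, − strand), had means of 2194 and 769.8, or 32.8 and 11.1 ppm per kb, a share 2.96-fold higher in iMNs. HLA-B, another classical heavy chain, had means of 1259 and 649.0, or 18.9 and 9.38 ppm per kb, a share 2.02-fold higher in iMNs, just past 2-fold. HLA-E, a nonclassical chain read by natural killer cells, had means of 379.2 and 147.9, or 3.44 and 1.29 ppm per kb, a share 2.67-fold higher in iMNs. The light chain and the 3 heavy chains thus all stood past 2-fold on the iMN side, 4 of 7 genes, against 13.9% of all genes in both tables. Without scaling between the tables, HLA-B fell under 2-fold. With only the main chromosome identifiers, HLA-E was not listed in both neuron types.

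With identifiers summed, the peptide loading genes differed less. With only the main chromosome identifiers, TAP2 and TAPBP were at least 2-fold higher in iMNs. Those identifiers held only 24.2% of the TAP2 mean and 42.8% of the TAPBP mean in i3Ns. That setting thus depends on how reads were divided among alternate sequences, which was not tested. TAPBP, the bridge between TAP and the empty heavy chain, had a mean of 2780 in iMNs and 2345 in i3Ns, or 18.6 and 15.1 ppm per kb, a share 1.23-fold higher in iMNs. TAP2 had means of 1013 and 954.7, or 4.14 and 3.76 ppm per kb. TAP1, with which TAP2 forms the peptide transporter, had means of 176.8 and 158.7, or 1.52 and 1.31 ppm per kb. Per kb, TAP2 was above its partner TAP1 in both neuron types, and both were under 2-fold apart between them. Of the ISRE cores printed above, those of B2M and TAP1 thus belong to the MHC class I gene furthest apart between neuron types and to one of the nearest.

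Values of the 6 genes of the MHC region were sums over identifiers, because the reference used for counting held alternate versions of that region. In iMNs the 6 genes had 19 identifiers, 4 on the main chromosome 6 and 15 on alternate sequences, and in i3Ns 24, 5 and 19. In i3Ns, the main chromosome identifier of HLA-B (ENSG00000234745) held 0.888% of the gene's mean and that of HLA-C (ENSG00000204525) 0.221%. The largest parts were 74.7% for HLA-B (ENSG00000223532) and 48.2% for HLA-C (ENSG00000233841), both on alternate sequences. HLA-E was mostly on the main chromosome (60.8%), and TAP2 mostly on ENSG00000225967 (57.7%), an alternate identifier. TAP1 had a row only for an alternate identifier (ENSG00000226173) in i3Ns. A reading of the main chromosome identifier alone would therefore give HLA-B a mean of 5.76 and HLA-C 1.70 in i3Ns, in place of 649.0 and 769.8. These genes are near copies of each other, and the division of reads between them is uncertain. B2M, which lies outside the region, had 99.1% and 98.9% of its mean on 1 identifier.

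Across the 27 genes in both tables, 10 had a share at least 2-fold higher in iMNs (37.0%), against 2178 of 15666 genes in all (13.9%). They were B2M, HLA-B, HLA-C, HLA-E, IRF1, IRF9, ISG15, MX1, IFIT2 and RSAD2. Only IFI6 was at least 2-fold higher in i3Ns (1 of 27, 3.70%), against 1538 genes (9.82%), and 16 were under 2-fold apart. These counts leave out the 9 genes listed in i3Ns only, while no gene of the module was listed in iMNs only. Of those 9, IFITM3 (3.08 ppm), OAS3 (0.801), IFI44L (0.363), IFIT3 (0.277) and IFIH1 (0.252) had i3N shares above the lowest iMN share (0.178). Whether they lie past 2-fold on the i3N side was not tested, so the split between the 2 sides holds for genes with both rows only. The nearest genes inside and outside 2-fold on the iMN side were HLA-B at 2.02-fold and IFI16 at 1.68-fold. The median log2 ratio of iMN to i3N share was 0.34 for the 27 genes and -0.02 for all genes. IFIT2 could not have fallen under 2-fold, since the lowest share in the iMN table (0.178 ppm) is 4.11 times its i3N share. Among genes with a mean of at least 50 in at least 1 table, which drops IFIT2 and RSAD2, 8 of 22 were at least 2-fold higher in iMNs, against 12.1% of all genes. ISG15 passed that filter only through iMNs, and with a mean of at least 50 required in both tables, a setting added after the data were seen, 7 of 21 were, against 9.54% of all genes. Neuron type, stem cell line and protocol differ together here, and the 27 genes are not independent replicates.

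**Figure D3:**
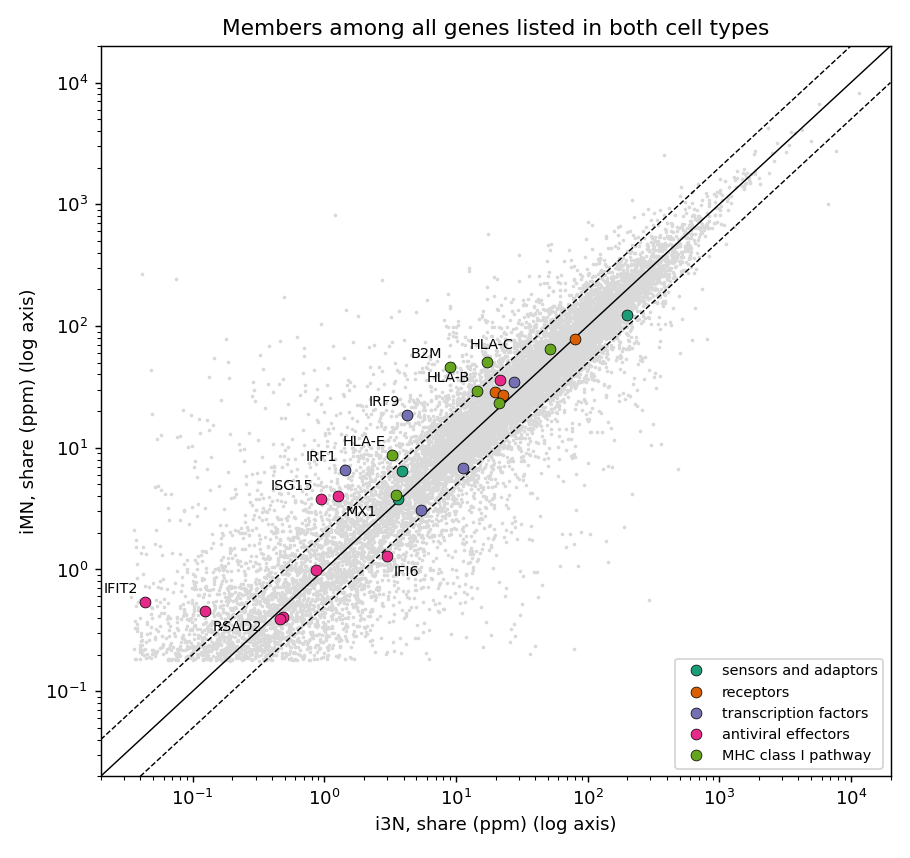
Share (ppm) in iMNs (y axis, log scale) against i3Ns (x axis, log scale) for 15666 genes listed in both (grey) and 27 genes of the module (coloured by role), with a solid line at equality and dashed lines at 2-fold. The 10 genes above the upper dashed line and IFI6 below the lower one are named, and the grey points stop at the lowest share of each table.

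Levels were also set beside the ISRE core, a comparison added after the data were seen. Of the 21 genes with the core in the promoter window, 12 had a row in iMNs (57.1%) and 20 in i3Ns (95.2%), with a median percentile of 29.0 and 25.2. Of the 11 without it, 9 had a row in iMNs (81.8%) and 10 in i3Ns (90.9%), with a median percentile of 63.7 and 59.5. Of all genes with a promoter entry, 36.8% with the core and 42.6% without it had a row in iMNs, and 40.8% and 46.0% in i3Ns. Over those listed, the median percentile was 53.2 with the core and 54.6 without it in iMNs, and 54.2 and 57.6 in i3Ns. Genes of the module with the core were mostly effectors and those without it mostly receptors, transcription factors and heavy chains, so that role and motif go together.

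The rest of the pathway was read from lists of other genes. None of 10 interferon genes (type I, gamma and lambda) had a row in either table. All 6 other receptor chains and kinases were listed in both. JAK1, a kinase used by all interferon receptors, was the highest at 119 ppm per kb in iMNs and 31.4 in i3Ns, a share 3.80-fold higher in iMNs. IFNGR2, the second chain of the interferon gamma receptor, was at 25.8 and 12.9 ppm per kb. TYK2, the kinase bound to IFNAR1, was at 7.39 and 7.52 ppm per kb.

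Of 10 other genes of nucleic acid sensing, 8 were listed in iMNs and 9 in i3Ns, and ZBP1 in neither. ADAR, which edits double-stranded RNA, was the highest, at 57.9 and 64.6 ppm per kb. EIF2AK2 (PKR) was at 7.36 and 5.17 and TBK1, the kinase that activates IRF3, at 7.83 and 10.3. TMEM173 (STING), the adaptor of DNA sensing, had a mean of 822.6 in iMNs and 2.22 in i3Ns, so that its 385-fold higher share in iMNs rests on an i3N mean near the table's lowest value. Of 17 other interferon-stimulated genes, 9 were listed in iMNs and 13 in i3Ns, and OASL, CXCL10, CXCL11 and XAF1 in neither. UBE2L6, the conjugating enzyme for ISG15, was far above the rest, at 59.0 and 67.3 ppm per kb, beside 5.92 and 1.47 for ISG15 itself. GBP2, a guanylate-binding protein, had a mean of 1506 in iMNs and 13.0 in i3Ns. Of these 9 genes in both tables, 3 were at least 2-fold higher in iMNs and 3 in i3Ns, against 13.9% and 9.82% of all genes.

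Of 11 other genes of MHC class I assembly, 10 were listed in each table. The chaperones CALR, CANX and PDIA3 were the highest, at 190, 152 and 92.4 ppm per kb in iMNs and 176, 138 and 79.7 in i3Ns. Of the 9 in both tables, 4 were at least 2-fold higher in iMNs and 1 in i3Ns, against 13.9% and 9.82% of all genes. NLRC5, the class I transactivator, was chosen for mention after its values were seen: its share was 6.28-fold higher in iMNs.

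Some markers of other cells moved between the tables as well. The shares of 6 mesenchymal markers summed to 60.6 ppm in iMNs (5 listed) and 145 in i3Ns (6 listed), with COL1A1 3.08-fold higher in i3Ns and COL1A2 1.17-fold higher in iMNs. Those of 4 pluripotency markers summed to 6.20 ppm in iMNs (2 listed) and 95.4 in i3Ns (4 listed), of which LIN28A made 93.6, while SOX2 was 1.44-fold higher in iMNs. Those of 4 endothelial markers summed to 0.446 and 0.508 ppm. For astrocytes, 1 of 4 markers was listed in each table, GFAP and AQP4 in neither. The part of other cells in the levels of the interferon and MHC class I genes was not tested.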

How the data were processed

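RNA of 12 libraries (3 SCR and 3 SMN-KD of each neuron type, grouped by their labels) was depleted of ribosomal RNA and sequenced in paired ends. Per the study's methods, the authors used fastp, Salmon and DESeq2 for gene expression. Alignment to hg38 with STAR is described there for splicing. Versions and annotation are not given in the sources used here. Each of the 2 deposited tables gives a mean normalized count per gene, a signal averaged by the authors over 6 libraries, and 4 columns of their own SMN-KD comparison (fold change, its error and p-values), which were not used.

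Identifiers sharing a symbol were summed. Shares (ppm), transcript lengths (GENCODE 44, MANE Select or else the longest transcript), percentiles and ratios were computed with Python 3.11.15, pandas 2.3.3 and NumPy 2.4.6, and the code was tested on simulated data. Coordinates are GRCh38. Single MHC identifiers are not valued in the donor-derived iMNs. All listed genes are named. Of other lists at most the 3 highest per kb in either neuron type and up to 5 unlisted genes are named, with stated exceptions and cell type markers named beyond that rule after their values were seen. The genes and lists were chosen with earlier results of these data known. Alternatives covered scaling, length, filters, fold threshold and identifiers. Some genes of the other lists are not reported here.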

Additional observations from a re-analysis of the deposited data

How the results depend on the processing

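Without scaling between the tables, 9 of 27 genes were at least 2-fold higher in iMNs (HLA-B lost, log2 ratio 0.96), against 13.1% of all. With median-of-ratios scaling it was 10 of 27 (14.6% of all genes). A mean of at least 50 in at least 1 table gave 8 of 22 (12.1%). That mean in both tables, added after seeing the data, gave 7 of 21 (9.54%). At a 3-fold threshold it was 7 of 27 (HLA-B, HLA-C and HLA-E lost), against 7.74% of all genes. With only the main chromosome identifiers it was 11 of 24 (14.1% of all genes). There TAP2 and TAPBP were gained, and HLA-E was lost because it left the set listed in both neuron types. HLA-C could not have fallen under 2-fold there. Its i3N mean on that identifier (1.70) is far below the lowest iMN mean (7.73). The count higher in i3Ns was 1 under each of these settings except at 3-fold, where it was 0, since IFI6 was at 2.32-fold. The scalings moved the median log2 ratio of all genes by -0.06 and 0.04. Above the 50th percentile, where 50% of all genes lie, the alternatives gave 9 to 11 genes in iMNs and 8 to 10 in i3Ns. Without division by length, which is not a rank per kb, it was 11 and 10. As reported, per kb, it was 11 of 27 and 12 of 36. The settings rank different sets of genes, and the 8 in i3Ns, of 30 genes, came with a mean of at least 10. With a mean of at least 10, a setting chosen after seeing the data, 27 and 30 genes were listed. Another scaling shifts every log2 ratio by the same amount, so at these shifts no gene at least 2-fold apart could change direction. IFNAR1, near equality, went from a log2 ratio of -0.04 to 0.01 with median of ratios. No paired analysis was possible because the tables hold 1 mean over all libraries of a neuron type, and the authors' own SMN-KD comparison was not used.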

Other observations

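The negative regulators of interferon signalling were all listed (5 of 5 in both tables), and 2 were at least 2-fold higher in iMNs and 1 in i3Ns, against 13.9% and 9.82% of all genes. SOCS3, an inhibitor of JAK kinases, had a mean of 3192 in iMNs and 148.2 in i3Ns, a share 22.4-fold higher in iMNs. SOCS1, its relative, had means of 682.8 and 99.5, a share 7.14-fold higher in iMNs. PIAS1, which restrains STAT signalling, had means of 4274 and 6620. PTPN2, a phosphatase that acts on JAK1, had means of 661.6 and 614.1. USP18, which removes ISG15 from proteins and is itself induced by interferon, was named after its values were seen: its mean was 23.1 in iMNs and 63.6 in i3Ns, a share 2.65-fold higher in i3Ns, on the opposite side from ISG15.

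Genes of MHC class II, which presents outside peptides in immune cells, were listed for 4 of 5 in each table, and all of those were at or under the 25th percentile of genes per kb. HLA-DRB1 was at 1.24 ppm per kb in iMNs and 0.345 in i3Ns, HLA-DPA1 was at 0.0823 and 0.228, a share 2.77-fold higher in i3Ns, and the transactivator CIITA, named after its values were seen, had a mean of 21.8 and 11.5. Of the 3 genes in both tables, 1 was at least 2-fold higher in each neuron type. These values have no error and no test.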
